A study of Mus musculus with 12 samples.

Results

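The chains described here are T cell receptor (TCR) delta chains whose V region comes from any delta V gene except Trdv4. They were taken from the TRDC rows of 12 TCR libraries, TRDC being the constant region gene of the delta chain, as the rows with a V region of the delta locus alone (V1, V2-1, V2-2, V5) or with a gene that both the alpha and the delta chain use (names containing DV). Of 13809 TRDC clonotypes, 13485 were members, and they carried 25731 of 37117 UMIs. A clonotype is defined within 1 library by its CDR3 nucleotides together with the V and J regions, and a UMI, a unique molecular identifier, marks 1 cDNA molecule. The members were spread over 18 of the 19 V-region values that TRDC rows held and named 14 genes, 4 of the delta locus alone and 10 shared with the alpha chain. V4 (Trdv4) was the other value, so the share of the members among TRDC UMIs is what Trdv4 left.

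The libraries came from wild-type mice bearing MTCQ1-2 tumors, a syngeneic model of head and neck squamous cell carcinoma, treated with BF10, αCSF1R, IL-10-Fc or control IgG. IL-10-Fc is IL-10 joined to an antibody Fc, αCSF1R is an antibody to the CSF-1 receptor of macrophages, and BF10 is an antibody to that receptor fused to IL-10. Each agent was given as 3 doses at 3-day intervals, with an equivalent dose of 30 mg/kg per the labels, and the methods adjust the dose of each agent to its molecular weight. CD8 T cells were selected with magnetic beads from tumors, spleens and tumor-draining lymph nodes (tdLN), RNA of 3 mice was mixed per library, and there was 1 library per tissue and treatment. The libraries hold TCR transcripts only, so the CD8 label could not be checked against markers. The sample titles name CD8 for tumors and spleens but not for tdLNs. A difference between tissues therefore cannot be told apart from a difference in cell selection or handling, and this was not tested. Totals ran from 61965 to 340888 UMIs over the 4 chains, and TRDC took 0.378% to 2.31% of them.

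γδ T cells carry a receptor of a gamma and a delta chain in place of alpha and beta. The delta locus lies inside the alpha locus, so that some V genes can be joined either to delta D and J segments or to an alpha J segment. Trdv4 encodes the invariant delta chain of γδ T cells of the fetal thymus, while the delta V genes described here make up the diverse delta repertoire of the adult. A delta CDR3 is built from the end of the V gene, none, 1 or both of the Trdd1 and Trdd2 segments, bases added without a template, and a J segment.

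All 14 member genes were found on chromosome 14 of the mouse genome (GRCm38) as annotated TCR V genes. Trav15d-1-dv6d-1 is the first of them (chr14:52863299-52863936), Trdv2-2 the last before the D segments (chr14:53960944-53961602), and Trdv5 lies beyond Trdc on the opposite strand (chr14:54148662-54149294), so that it joins by inversion. The germline segments against which the CDR3s were read are shown first, on the plus strand. Trdd1 lies at chr14:54113468-54113478, Trdd2 at chr14:54122226-54122241 and Trdj1 at chr14:54123138-54123188.
Trdd1: atggcatatca
Trdd2: atcggagggatacgag
Trdj1: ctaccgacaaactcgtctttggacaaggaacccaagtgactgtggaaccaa

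The CDR3s below are those the results turn on, from the cysteine codon at the end of V to the phenylalanine codon of J. Capitals mark the longest stretch of Trdd2 outside the germline V part. The capitals can run into bases that also match Trdj1, as in the largest Trdv2-2 CDR3 of the IL-10-Fc tdLN. The CDR3s shown are the clonotypes listed in the most libraries and the largest ones of tumors, spleens and tdLNs, all with J1.
Trdv5, in 9 libraries: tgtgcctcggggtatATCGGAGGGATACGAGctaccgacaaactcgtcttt
Trav14d-3-dv8, in 9 libraries: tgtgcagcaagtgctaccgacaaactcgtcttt
Trav13-4-dv7, in 8 libraries: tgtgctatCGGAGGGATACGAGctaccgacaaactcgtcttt
Trav15-1-dv6-1, in 6 libraries: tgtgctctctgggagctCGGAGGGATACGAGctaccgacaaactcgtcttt
Trdv2-2, largest in the αCSF1R tdLN: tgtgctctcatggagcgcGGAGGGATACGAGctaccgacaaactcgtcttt
Trdv2-2, largest in the IL-10-Fc tdLN: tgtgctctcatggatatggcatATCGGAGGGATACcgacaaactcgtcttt
Trav13-4-dv7, largest in the αCSF1R tumor: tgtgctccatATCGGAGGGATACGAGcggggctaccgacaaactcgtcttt
Trav14d-3-dv8, largest in the BF10 tumor: tgtgcagcaagtgccgacaaactcgtcttt

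The first question was how much of the delta repertoire these genes made up in each tissue. In spleens they were nearly all of it: 98.3% of TRDC UMIs with control IgG, 99.7% with IL-10-Fc, 97.1% with αCSF1R and 96.2% with BF10. In tdLNs the shares were 66.0%, 65.1%, 47.2% and 57.7% in the same order, so every tdLN lay below every spleen. In tumors they were 49.0%, 94.5%, 17.03% and 91.9%, a wider range than in either other tissue. Means were 97.8% ± 1.48 (SD, n = 4 libraries) in spleens, 59.0% ± 8.72 in tdLNs and 63.1% ± 37.1 in tumors. Spleens were 38.8 percentage points above tdLNs on average and 34.7 above tumors, and in both cases the adjusted p was 0.0429 in a two-sided exact permutation test of 4 libraries against 4 (unadjusted 0.0286, the smallest this design allows). Tumors and tdLNs overlapped, and an exact permutation test of their difference of 4.09 points gave an adjusted p of 0.914. With treatment as a block, the smallest p that 4 sign flips allow is 0.125, and the adjusted p was 0.188 for both differences from spleen in that exact test. The p-values measure the spread between pooled libraries that also differ in treatment.

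A single Trdv4 clonotype carried 28.0% to 45.0% of TRDC UMIs in each tdLN, and without the largest TRDC clonotype of every library the distance between spleens and tdLNs fell to 8.89 points. Counted as clonotypes, the members were 99.2% to 99.5% of TRDC clonotypes in spleens and 96.4% to 97.9% in tdLNs. In tumors they were 84.6% with control IgG (121 of 143), 98.2% with IL-10-Fc (333 of 339), 30 of 60 with αCSF1R and 98.1% with BF10 (607 of 619). Per 10000 UMIs of the whole library the order of the tissues was another one. The members had 134, 150, 72.7 and 122 UMIs in tdLNs, 86.1, 42.2, 76.9 and 112 in spleens, and 42.1, 35.7, 30.2 and 46.0 in tumors, in the order of treatments used above. On this scale tdLNs were higher than spleens by 40.6 on average, with overlapping libraries and an adjusted p of 0.143 in the exact permutation test. Tumors were lower than tdLNs by 81.3 (adjusted p = 0.0857 in the exact test, no overlap). Trdv4 ranged from 2.08 to 147 per 10000 in tumors, against 30.2 to 46.0 for the members, so the wide range of the shares in tumors came with a wide range of Trdv4. In a bulk library, fewer cells of a type and less receptor RNA per cell cannot be told apart.

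**Figure D1:**
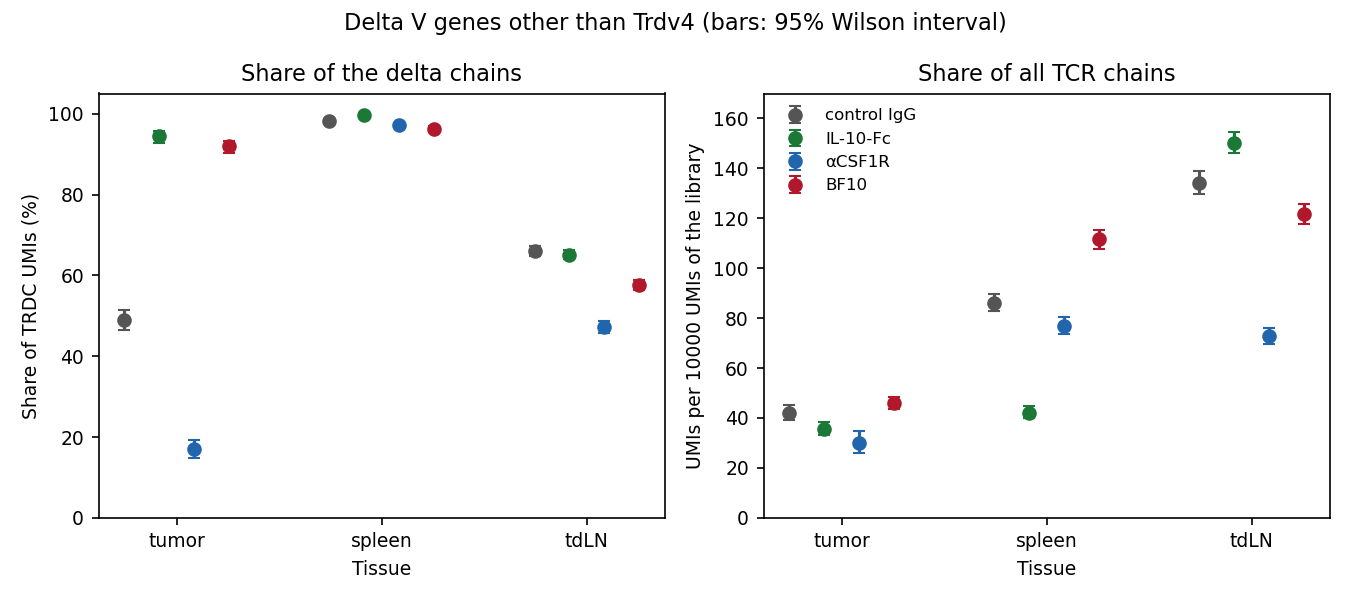
Delta V genes other than Trdv4 in the 12 libraries, as a share of TRDC UMIs in percent (left) and as UMIs per 10000 UMIs of the library (right), by tissue, with 1 point per treatment and 95% Wilson intervals as bars. In tumors the left panel runs from 17.03% to 94.5%, while the right panel runs from 30.2 to 46.0.

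Treatments had 1 library each within a tissue, so their differences within a tissue have no replicate check, and treatments were not tested across tissues. Intervals in brackets are 95% intervals from the UMIs (Wilson for a share, Newcombe for a difference) and, like the limits given for shares of 0, cover counting error only. In tumors the members' share of TRDC UMIs was 42.9 percentage points higher with BF10 than with control IgG (40.05 to 45.6) and 45.5 points higher with IL-10-Fc (42.5 to 48.2). With αCSF1R it was lower by 32.0 points (interval of the difference -35.2 to -28.6). A single Trdv4 clonotype held 31.7% of TRDC UMIs in the control IgG tumor and 63.1% in the αCSF1R tumor. The largest held 3.21% with IL-10-Fc and 5.88% with BF10, also a Trdv4 clonotype. Without the largest TRDC clonotype the difference between BF10 and control IgG was smaller, as given below. Against all chains the tumors ranged from 30.2 UMIs per 10000 with αCSF1R (26.2 to 34.8) to 46.0 with BF10 (43.6 to 48.5). The BF10 tumor had 1.09 times the control's UMIs per 10000, the IL-10-Fc tumor 0.849 times and the αCSF1R tumor 0.717 times. In spleens the αCSF1R and BF10 libraries had 0.893 and 1.30 times the control's UMIs per 10000 and the IL-10-Fc library 0.490 times. In tdLNs the BF10 library had 0.906 times the control's UMIs per 10000, the αCSF1R library 0.541 times and the IL-10-Fc library 1.12 times.

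Among the member UMIs, the genes of the delta locus alone held 44.4% and the genes shared with the alpha chain 55.6%. Trdv2-2 was the most used gene, with 5844 UMIs and 2784 clonotypes (22.7% of member UMIs). It was followed by Trav13-4-dv7 (3182 UMIs), Trav15d-2-dv6d-2 (2966), Trdv5 (2588), Trdv1 (2389), Trav15d-1-dv6d-1 (2325) and Trav15-1-dv6-1 (1913). Smaller were Trav21-dv12 (1004 UMIs), Trav14d-3-dv8 (898), Trav15-2-dv6-2 (667) and Trav16d-dv11 (241). The Trav15-dv6 genes, which encode the Vδ6 chains found on γδ NKT cells among others, together held 34.6% of member UMIs. The counts rank molecules of different genes, and no correction between V genes was made. The other 4 values had 1 to 69 UMIs each, 102 in all; they were Trav6-7-dv9 (69), Trav4-4-dv10 (31) and 2 values of 1 UMI that named several genes.

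Some values name more than 1 gene. V2-1V2-2 had 592 UMIs, and no TRDC row named Trdv2-1 alone. Of its 441 clonotypes, 98.6% shared more bases with the germline end of Trdv2-2 than with that of Trdv2-1, against 99.1% of the V2-2 clonotypes. Trav15-1-dv6-1 and Trav15d-1-dv6d-1 end in the same bases, as do Trav15-2-dv6-2 and Trav15d-2-dv6d-2, and the values that name both of a pair had 564 and 456 UMIs. The levels of those 4 genes are therefore uncertain by at least these amounts, and so are differences of a single copy between tissues.

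**Figure D2:**
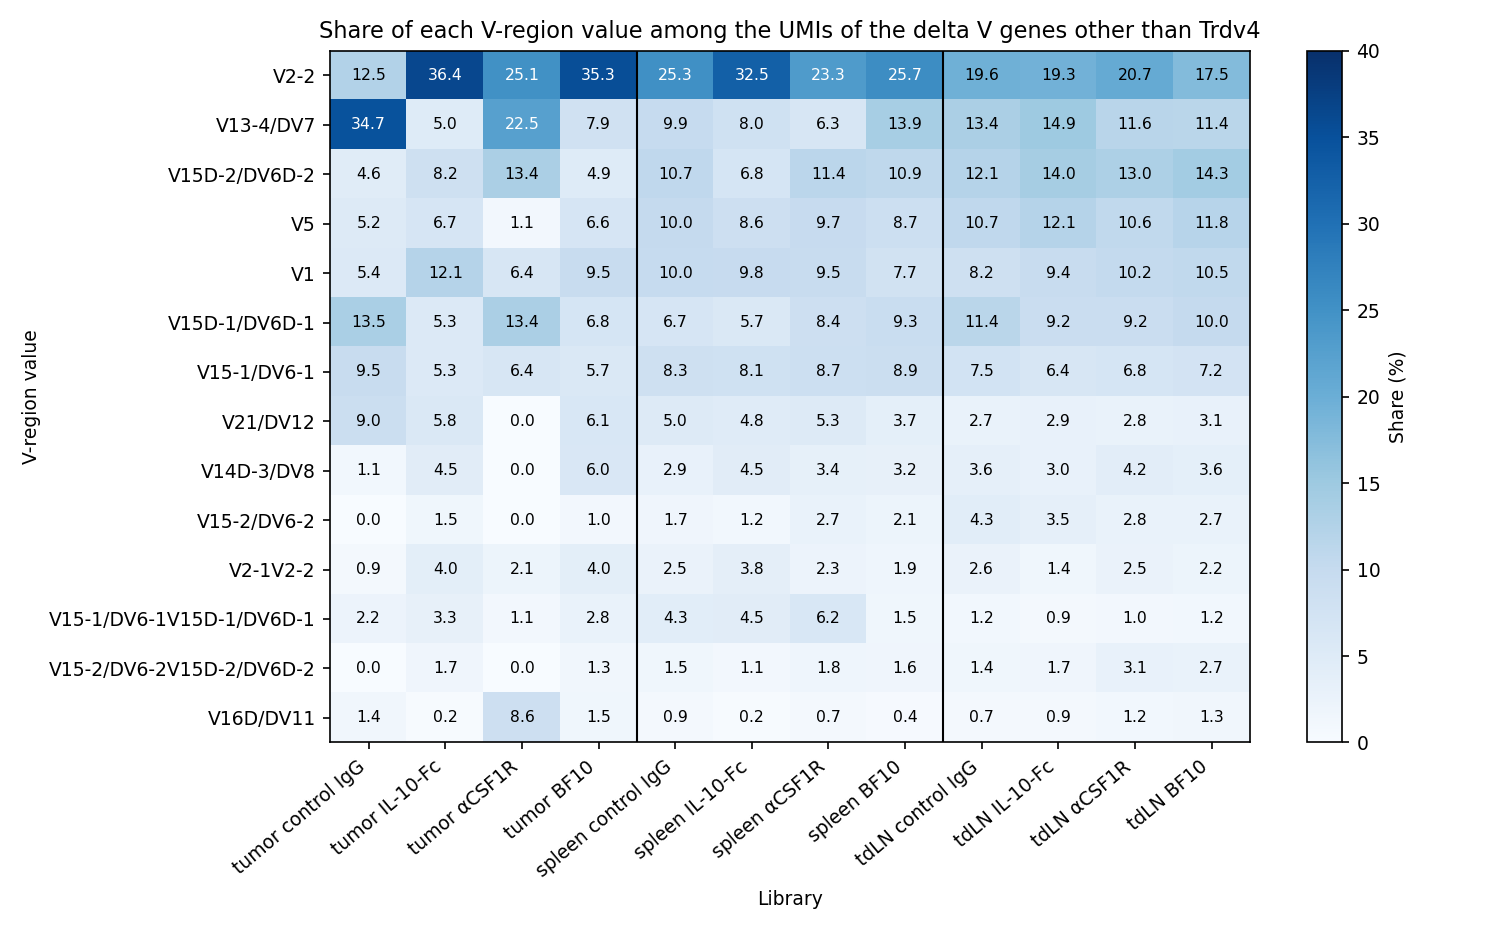
Share of each of the 14 V-region values with at least 100 UMIs, in percent of the UMIs of the delta V genes other than Trdv4 (rows, in order of total UMIs), in each library (columns; lines part the tissues). The 4 tdLN columns resemble each other, while V13-4/DV7 reaches 34.7% and 22.5% in the control IgG and αCSF1R tumors and 4.97% to 14.9% elsewhere.

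As a share of TRDC UMIs, 17 V-region values including V4 had at least 20 UMIs in spleens and tdLNs together. All 4 tdLN shares lay below all 4 spleen shares for 8 of the 16 member values tested, and 47.1% of all values tested were called in this direction. None of the 16 was higher in every tdLN (5.88% of all values, which was V4). In tumors against spleens 2 of 15 member values (Trdv5 and Trav15-1-dv6-1) were lower in every library, and 12.5% of all values were called that way, while none of the 15 was higher (6.25% of all values, again V4). Since a change in Trdv4 UMIs alone would shift all these shares, the members were also compared as shares of their own UMIs. On that scale 25% of the 16 values tested were lower and 12.5% higher in every tdLN than in every spleen, 6.67% of 15 were lower in every tumor than in every spleen, and 13.3% of 15 lower in every tumor than in every tdLN. No p is given for single values, since the list was chosen with results of these data known.

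Trdv2-2 was the largest of the values that were lower in tdLNs. Its share of member UMIs was 19.6%, 19.3%, 20.7% and 17.5% in tdLNs and 25.3%, 32.5%, 23.3% and 25.7% in spleens, in the order of treatments used above, with no overlap (19.3% ± 1.32 against 26.7% ± 4.01, SD, n = 4 each). With only UMIs of at least 7 reads the tissues overlapped, with tdLNs at 18.8% to 27.4% and spleens at 23.4% to 33.2%. In tumors it was 12.5%, 36.4%, 25.1% and 35.3%, so that tumors spanned the other tissues. Trav21-dv12 had 2.74% to 3.11% in tdLNs and 3.68% to 5.31% in spleens, and this call held under all 7 alternatives. Merging CDR3s and requiring a delta J region could not change these shares. Leaving out the largest TRDC clonotype could do so only in the IL-10-Fc spleen. In tumors Trav21-dv12 had 9.02% with control IgG, 5.82% with IL-10-Fc and 6.11% with BF10, and 0 of 187 UMIs with αCSF1R. Taking each UMI as independent, this allows a share of up to 1.60% (3 of 187 UMIs). These UMIs came from only 30 clonotypes, so a higher share is possible. Trav15-1-dv6-1 (6.36% to 7.45% in tdLNs, 8.09% to 8.92% in spleens) was also lower in tdLNs, but overlapped with UMIs of at least 7 reads and with clonotypes in place of UMIs. The value that names it together with Trav15d-1-dv6d-1 had 0.917% to 1.19% in tdLNs and 1.53% to 6.23% in spleens.

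Trdv5 and Trav15d-2-dv6d-2 were higher in tdLNs as shares of member UMIs, the scale added after seeing the data. As a share of TRDC UMIs the direction of Trdv5 was the opposite, with 5.0% to 7.89% in tdLNs and 8.36% to 9.83% in spleens and no overlap, and Trav15d-2-dv6d-2 overlapped. Of member UMIs, Trdv5, the inverted gene, had 10.7%, 12.1%, 10.6% and 11.8% in tdLNs, 10.01%, 8.58%, 9.75% and 8.69% in spleens and 5.19%, 6.67%, 1.07% and 6.62% in tumors, in the same order of treatments. All 4 tumors thus lay below all spleens and all tdLNs. Both of these calls held under all 7 alternatives on this scale, with the same limit of the alternatives as for Trav21-dv12. As a share of TRDC UMIs the tumors (0.182% to 6.30%) were below all spleens but overlapped with tdLNs. The call between tdLNs and spleens was lost with clonotypes of at least 2 UMIs. Tumors had 1 to 40 Trdv5 clonotypes each (2 to 90 UMIs), against 56 to 341 in the other libraries. Trav15d-2-dv6d-2 had 12.1% to 14.3% in tdLNs and 6.78% to 11.4% in spleens, and overlapped with UMIs of at least 7 reads. The value that names it with its near copy Trav15-2-dv6-2 had 1.43% to 3.07% in tdLNs and 1.06% to 1.79% in spleens. How those UMIs divide between the copies is not known, so the calls of either copy are uncertain. Trav15-2-dv6-2 had 2.69% to 4.27% in tdLNs and 0% to 1.45% in tumors, where the control IgG and αCSF1R libraries listed 0 UMIs. These tissues overlapped with UMIs of at least 7 reads (0% to 1.42% in tumors, 0.873% to 3.33% in tdLNs) and as shares of TRDC UMIs. Taking each UMI as independent, a count of 0 allows shares of up to 0.371% and 1.60% in the control IgG and αCSF1R tumors. Their member UMIs came from 121 and 30 clonotypes, so higher shares are possible. Trdv1 had 7.68% to 10.5% in spleens and tdLNs and 5.44% to 12.1% in tumors.

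**Figure D3:**
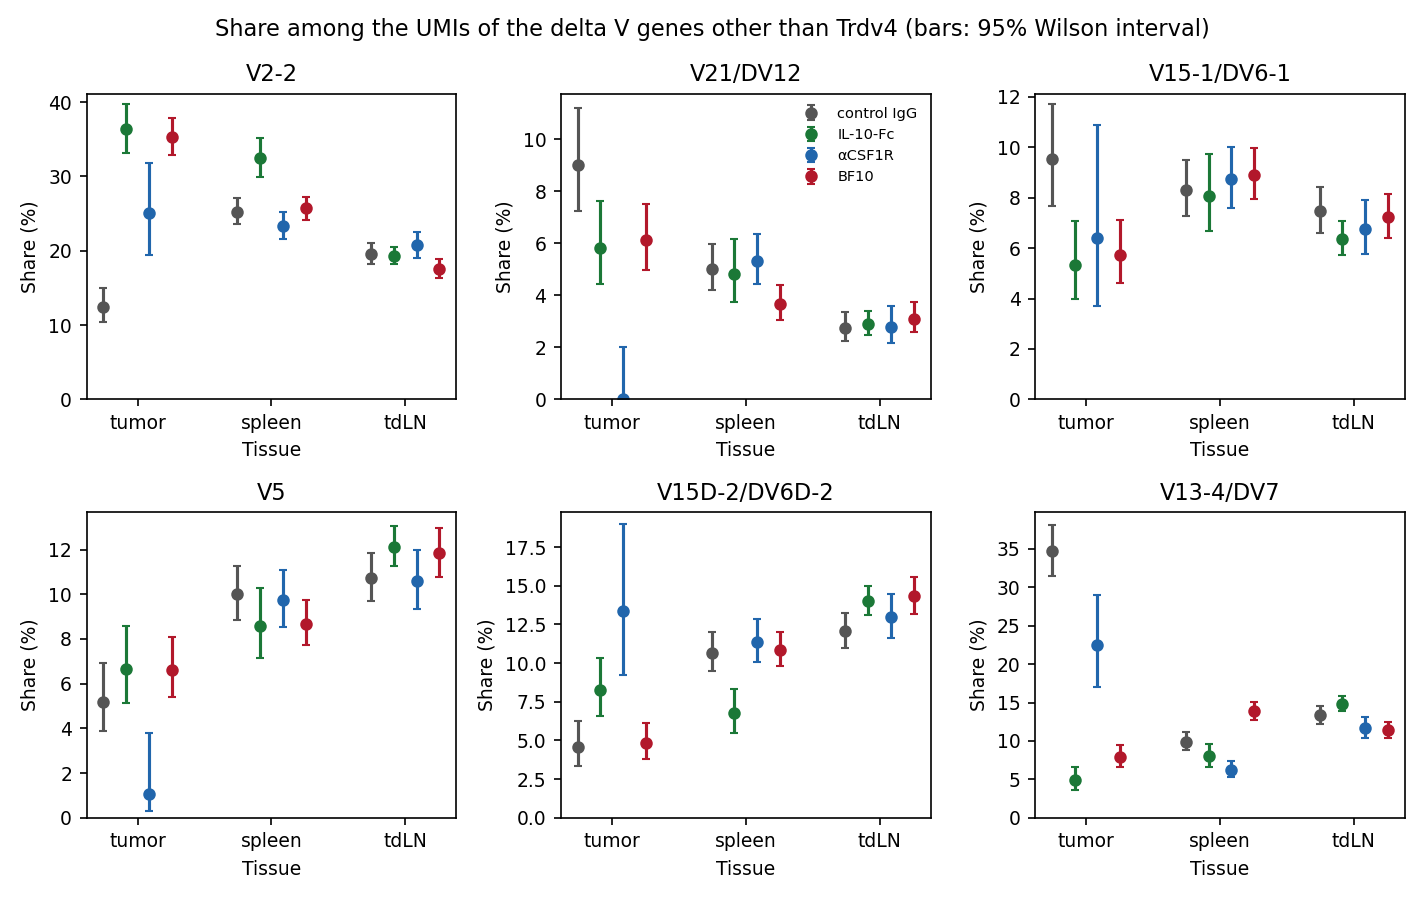
Share of 6 V-region values in percent of the UMIs of the delta V genes other than Trdv4, by tissue, with 1 point per treatment and 95% Wilson intervals as bars; the vertical axes differ. V2-2 and V21/DV12 are lower and V5 is higher in every tdLN than in every spleen on this scale (V5 is lower as a share of TRDC UMIs), and V5 is lowest in the 4 tumors, at 1.07% to 6.67%.

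Trav13-4-dv7 stood apart in 2 tumors. It had 281 of 809 member UMIs in the control IgG tumor, 34.7% (31.5% to 38.1%), and 42 of 187 in the αCSF1R tumor, 22.5% (17.1% to 29.0%). In the IL-10-Fc and BF10 tumors it had 4.97% and 7.87%, in spleens 6.27% to 13.9% and in tdLNs 11.4% to 14.9%. In the control IgG tumor these UMIs were spread over 39 clonotypes, 32.2% of its member clonotypes, the largest with 44, 25 and 19 UMIs, and 19 clonotypes had at least 5 UMIs. Without its 5 largest clonotypes the share there was 23.6%, still above every spleen and tdLN. In the αCSF1R tumor 6 clonotypes held them, and without the 5 largest the share was 0.685%. The largest of the control IgG tumor is the CDR3 shown above as listed in 8 libraries, where it had 1 to 4 UMIs in each of the other 7. The largest of the αCSF1R tumor, with 18 UMIs, was listed in no other library.

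Tumors also differed in how many clonotypes the members had. At 187 UMIs, the total of the smallest library, 179 to 184 clonotypes were expected in tdLNs and 167 to 175 in spleens, so that most UMIs were a clonotype of their own. Tumors had 164 with BF10, 144 with IL-10-Fc, 81.6 with control IgG and 30 with αCSF1R. Every tumor lay below every spleen, and every spleen below every tdLN (adjusted p = 0.0286 for each of the 3 pairs in the two-sided exact permutation test, the smallest possible). With treatment as a block the adjusted p was 0.125 for each pair in the exact test, which is also the smallest it allows. The planned tissue tests were those of the share of TRDC UMIs, so the test of expected clonotypes was not planned. Apart from treatment as a block, none of the alternatives was run for it. UMIs per clonotype were 6.69 in the control IgG tumor and 6.23 in the αCSF1R tumor, against 1.33 to 2.67 in the other 10 libraries. The share of member UMIs with at least 7 reads was 13.6% and 15.04% in the BF10 and αCSF1R tdLNs and 39.4% to 67.4% in the other libraries, so reads per UMI differed beside these counts, and their part in the result was not tested.

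**Figure D4:**
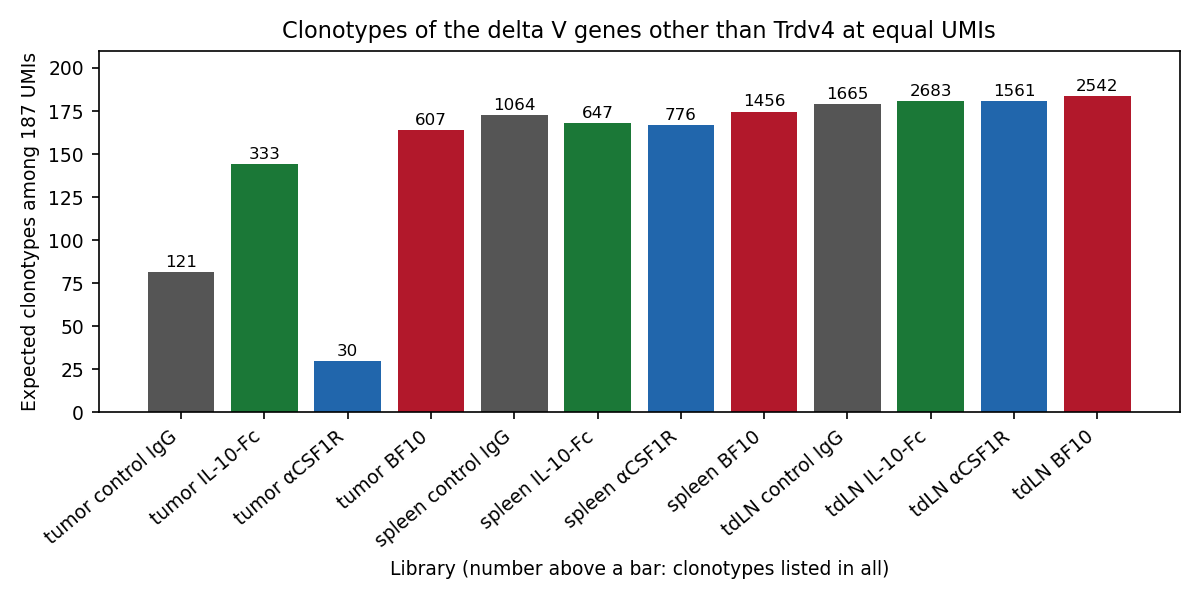
Expected number of clonotypes of the delta V genes other than Trdv4 among 187 UMIs of each library (bars, colored by treatment), with the number of clonotypes listed in all above each bar. The αCSF1R and control IgG tumors reach 30 and 81.6, and the other 10 libraries 144 to 184.

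The largest member clonotype of a library held 0.374% to 2.12% of member UMIs in spleens and tdLNs. In tumors it held 5.44% with control IgG (4.08% to 7.22%), 1.45% with IL-10-Fc, 9.63% with αCSF1R (6.18% to 14.7%) and 0.809% with BF10. In the αCSF1R tumor the second in size was a Trav16d-dv11 clonotype of 16 UMIs, the only one of that gene there, and it made up the whole 8.56% of the gene in that library, against 0.242% to 1.47% elsewhere. The Trdv2-2 clonotype of 52 UMIs in the IL-10-Fc tdLN was listed in no other library. The Trav15-1-dv6-1 clonotype had 65 UMIs in the BF10 spleen, 22 in the BF10 tdLN, 6, 3 and 2 in the control IgG, IL-10-Fc and αCSF1R tdLNs and 5 in the IL-10-Fc tumor. The same CDR3 was also listed under both other values of this pair of genes, and under all 3 together it had 122 UMIs in 7 libraries. A Trav15d-1-dv6d-1 clonotype had 26 UMIs in the control IgG tumor and 6 in the control IgG spleen, and no others.

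Few clonotypes recurred. Of 13122 distinct member clonotypes, 12886 (98.2%) were listed in 1 library, 236 in at least 2, 29 in at least 4 and 3 in at least 8. The Trdv5 clonotype in 9 libraries had 46 UMIs, with 16, 12, 2 and 5 in the IL-10-Fc, control IgG, αCSF1R and BF10 tdLNs, 1 to 3 in each spleen and 3 in the BF10 tumor. As printed above it is the whole germline end of Trdv5, the whole of Trdd2 and Trdj1, with no other base. The Trav14d-3-dv8 clonotype in 9 libraries had 36 UMIs, at most 9 in a library, and is the germline V end joined directly to Trdj1. Of the 29 in at least 4 libraries, 10 used Trdv2-2, 6 Trav14d-3-dv8 and 5 Trav15d-1-dv6d-1. These were 0.374%, 1.51% and 0.444% of the distinct clonotypes of each gene, against 0.221% of all members. The 29 had a median of 15 bases between the germline V and J parts, against 21 in clonotypes of 1 library. A stretch of at least 7 bases of Trdd1 was found in 0% of the 29, against 16.5%.

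Trdd2 was the D segment found most often in the members. A stretch of at least 7 of its bases lay outside the germline V part in 86.9% of member clonotypes, and such a stretch of Trdd1 in 15.9%. The median length of the Trdd2 stretch was 13 bases of the 16, with bases that also match Trdj1 included. Trdd1 has 11 bases, so the same minimum asks for a larger part of it. The shares of the 2 segments are thus not on equal terms, and shorter remains were not counted. Both segments were found in 14.7% and neither in 11.8%. Trdv4 clonotypes had Trdd2 in 87.0% and Trdd1 in 0.309%. Of 395108 distinct TRAC clonotypes, which have no D segment, 2.73% held such a stretch of Trdd2 and 0.083% one of Trdd1. Those were found by letters alone, anywhere in the CDR3. Between values with at least 100 UMIs the share with Trdd2 was 83.6% to 91.4%, except in Trav14d-3-dv8, where it was 46.4%. Among the same values Trdd1 was most frequent in those of Trav15-2-dv6-2 and its copy and in Trdv5 (18.6% to 21.3%), and least frequent in Trav14d-3-dv8 (6.56%). By tissue, Trdd2 was found in 86.7% of member clonotypes of tumors, 85.9% of spleens and 87.4% of tdLNs.

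The reading frame of Trdd2 varied with the V gene. Of member clonotypes with Trdd2, 42.9% had a codon that starts at its first base, 27.3% at the second and 29.7% at the third. For Trdv4 the shares were 67.7%, 6.38% and 25.9%. Trav15d-1-dv6d-1 used the first most often among values with at least 100 UMIs (50.3%), and Trav15-2-dv6-2 with its copy, named together, least often (36.8%). Trav13-4-dv7 and Trav16d-dv11 used the second in 17.6% and 15.7% of clonotypes and the third in 39.0% and 41.7%. In tumors the shares were 37.3%, 28.5% and 34.1%, in spleens 42.9%, 27.5% and 29.6%, and in tdLNs 43.7%, 27.1% and 29.2%.

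J pairing was nearly uniform. Of member clonotypes, 13374 used J1 (Trdj1) and 111 used J2 (Trdj2), and J2 took 0% to 1.47% of member UMIs in a library. Trav14d-3-dv8 paired with J2 in 3.28% of its clonotypes and Trav15-2-dv6-2 in 2.02%, while Trdv5 did in 0.139%. Trdv2-2 had the most J2 clonotypes, 40 with 78 UMIs. In Trdv4, J2 took 76.7% to 98.0% of UMIs in the libraries other than the IL-10-Fc spleen, which had 4 Trdv4 UMIs, 1 of them with J2.

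CDR3 length differed between V genes, while its medians by tissue were equal. The median over member clonotypes was 54 bases in tumors, spleens and tdLNs alike, and 51 or 54 in each library. Member CDR3s ranged from 15 to 87 bases (mean 54.0 ± 8.91, SD over 13485 clonotypes), Trdv4 had a median of 51, and TRAC and TRBC each had a median of 42. By gene the medians were 57 for Trdv2-2 and each of the Trav15-dv6 genes, 54 for Trdv5, Trav21-dv12 and Trav16d-dv11, 51 for Trdv1, 48 for Trav13-4-dv7 and 39 for Trav14d-3-dv8. J2 clonotypes were longer than J1 clonotypes, with medians of 60 and 54.

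Trav14d-3-dv8 had 2 kinds of CDR3. Of its 457 clonotypes, 46.2% were at most 36 bases long, against 3.12% of those of the other values, and the most frequent length was 33 bases (22.3%), with a second peak at 48 bases (9.41%). In 53.0% neither D segment was found, and these had a median of 33 bases and 3 bases between the germline V and J parts. Those with Trdd2 had a median of 51. The short kind made up 55.8% of its clonotypes in tumors, 58.9% in spleens and 38.8% in tdLNs. The 2 clonotypes printed above, of 33 and 30 bases, have 0 bases between V and J, and the latter was the largest member clonotype of the BF10 tumor, with 11 UMIs.

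**Figure D5:**
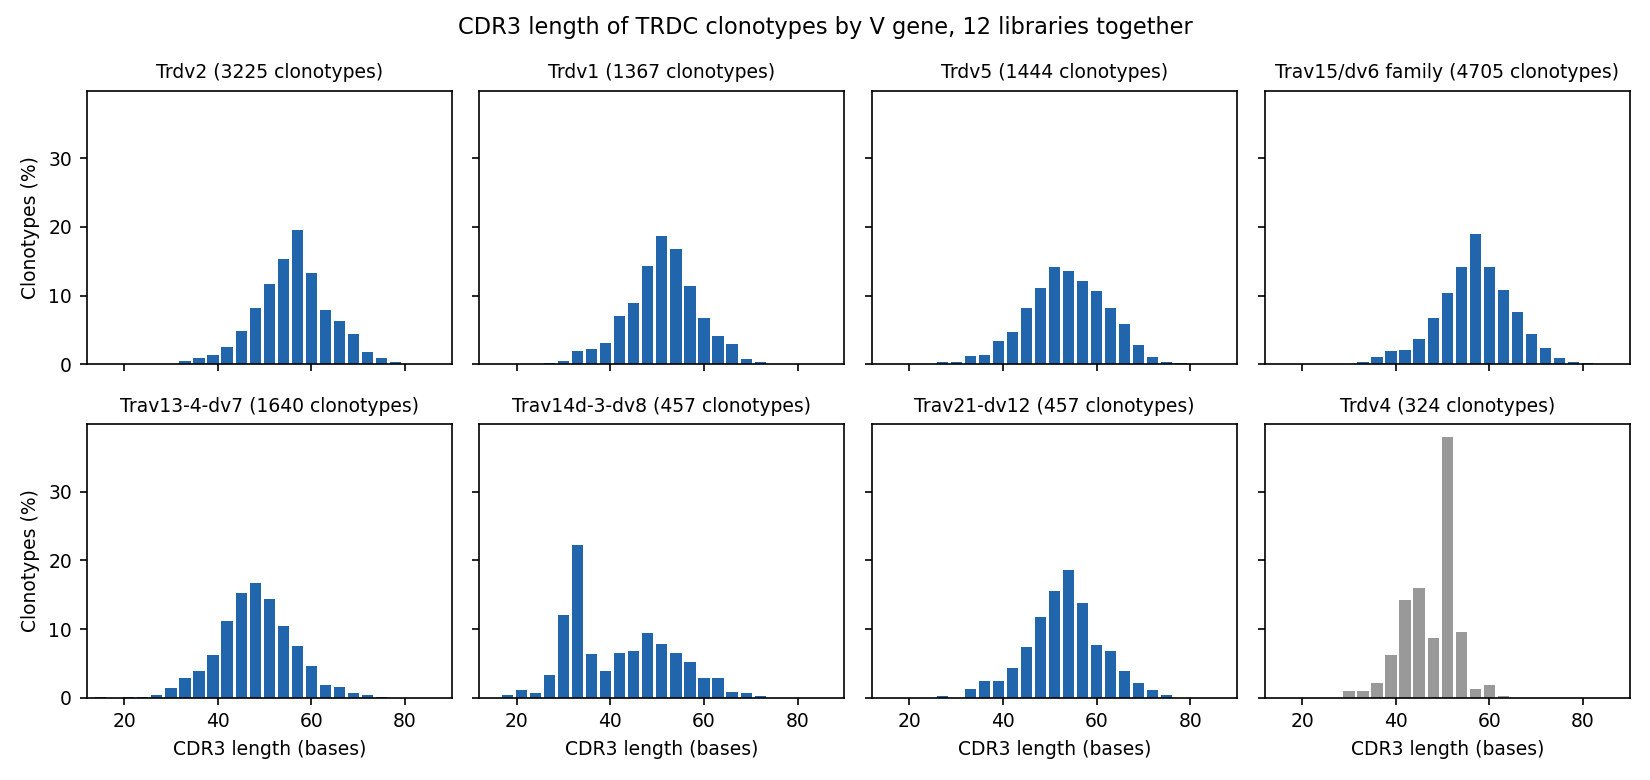
CDR3 length in bases of TRDC clonotypes of the 12 libraries together, as a percentage of the clonotypes of each V gene or family, with Trdv4 in grey. Trav14d-3-dv8 has 2 peaks, at 33 and 48 bases, while the other members have 1, near their medians of 48 to 57.

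Over the 12 libraries the TRGC values whose UMIs per 10000 were distributed most like those of the members were V1V3, V1 and V7, with profile overlaps of 0.888, 0.846 and 0.804 (1 for identical profiles). The libraries share depth and tissue across these values, and no chain pairing was measured.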

How the data were processed

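RNA of bead-selected CD8 T cells (100 ng per library, 3 mice mixed) was made into QIAseq TCR libraries by the authors, and reads were grouped by UMI and assigned to V region, J region and CDR3 in Qiagen's portal. The germline reference of the portal is not given in the sources used here; the labels name mm10. The authors deposited, without normalization, the counts of UMIs with at least 3 reads per clonotype and with higher minimums of up to 7 reads. Counts with at least 3 reads were used, and the deposited fraction, which is their share of the chain in a library, was not used.

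Members were found by V-region value. Member genes and lists were chosen with earlier results of these data known. V-region values with at least 1% of TRDC UMIs in a library or at least 100 UMIs in all are given library by library. The clonotypes named are the largest of each library, the largest of each such value and those in at least 8 libraries. A tissue comparison of a value needs at least 20 UMIs over the 8 libraries compared and is called where 4 shares lie all above or all below the other 4. Tissue means were compared over 4 libraries each with two-sided exact permutation tests (70 regroupings), for 4 measures, with Benjamini-Hochberg adjustment over the 3 tissue pairs of a measure and a threshold of 0.05. Depth sets the precision: 3 UMIs are 0.0381% to 0.344% of a library's TRDC UMIs. Segments were read from GRCm38 with GENCODE positions, and a D segment was counted where at least 7 bases in a row matched outside the germline V part. The steps were tested on simulated data. Software was scipy 1.17.1, pandas 2.3.3, numpy 2.4.6 and matplotlib 3.10.9 under Python 3.11.15. Alternatives were UMIs with at least 7 reads, clonotypes with at least 2 UMIs, clonotypes in place of UMIs, no dominant clonotype, single-gene values, delta J regions, merged CDR3s, treatment as a block and leaving out a treatment. UMIs per 10000 and shares of member UMIs were added after seeing the data. The expected number of clonotypes was outside the planned tests.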

Additional observations from a re-analysis of the deposited data

Results flagged for a closer look

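The members' share of TRDC UMIs differed between BF10 and control IgG in opposite directions in different tissues. It was 42.9 percentage points higher with BF10 in tumors, while the difference was -2.01 points in spleens (-2.86 to -1.15) and -8.38 points in tdLNs (-10.2 to -6.53). Each of these compares 1 library with 1 other, the intervals cover counting error only, and the difference between tissues was not tested. Counted as clonotypes, the difference in tdLNs reversed. Without the largest TRDC clonotype of each library the differences kept their direction and were smaller in size, as given below. Per 10000 UMIs of the library, BF10 had 1.09 times the control's member UMIs in tumors, 1.30 times in spleens and 0.906 times in tdLNs.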

How the results depend on the processing

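For the share of TRDC UMIs, the differences of tdLNs and tumors from spleens kept their direction and their side of the threshold. This held under the 7 alternatives to the counting of UMIs and clonotypes, which were not run for the expected clonotypes. With treatment as a block (paired libraries of a treatment) the differences in share were -38.8 and -34.7 percentage points. The adjusted p was 0.188 for each in the exact test, and sign flips of 4 pairs cannot go below 0.125. Leaving out 1 treatment gave -41.0 to -35.1 points for tdLNs against spleens, -44.8 to -19.6 for tumors against spleens and -5.95 to 15.5 for tumors against tdLNs, where an exact test of 3 against 3 cannot go below 0.1. The difference between tumors and spleens was -19.6 without αCSF1R, and that between tumors and tdLNs turned to -4.33 without IL-10-Fc and -5.95 without BF10. Tumors against tdLNs reversed to -14.5 points with clonotypes in place of UMIs and to -12.2 without the largest TRDC clonotype. Per 10000 UMIs of the library, tdLNs against spleens reversed to 40.6, tumors against tdLNs to -81.3, BF10 against control IgG in spleens to 25.4, and tumors against spleens stayed at -40.7 without passing the threshold. BF10 minus control IgG moved in tumors to 13.4 points with clonotypes and 25.8 without the largest clonotype, and in spleens to -0.257 and -0.672. In tdLNs the difference between BF10 and control IgG reversed to 0.346 with clonotypes. It moved there to -0.600 without the largest clonotype and to -22.2 when each clonotype had to hold 2 UMIs or more. The 8 V-region values lower in every tdLN than in every spleen became 3 with clonotypes, 4 without the largest clonotype and 4 as shares of member UMIs, and the 2 lower in tumors became 1 on that scale. The largest clonotype of a library was Trdv4 in all libraries but the IL-10-Fc spleen, so that leaving it out removes Trdv4 UMIs from the total in 11 libraries. The cause of the other changes was not tested. Median CDR3 lengths by tissue stayed at 54 bases. Merging similar CDR3s and requiring a delta J region left every share as it was. Neither could have changed a share of UMIs, so holding under them is no check on a result.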

Other observations

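The genes shared with the alpha chain were also read in TRAC rows. Trav13-4-dv7 had 7319 TRAC UMIs against 3182 TRDC UMIs, and Trav21-dv12 8498 against 1004. CDR3s of the same gene were shorter in TRAC than in TRDC, with medians of 42 and 48 bases for Trav13-4-dv7, 45 and 54 for Trav21-dv12, 48 and 57 for Trav15-1-dv6-1 and 45 and 57 for Trav15-2-dv6-2. In the control IgG tumor, where Trav13-4-dv7 was 34.7% of member UMIs, it was 1.24% of TRAC UMIs, against 0.406% to 0.662% in the other 11 libraries. No TRAC row named Trav14d-3-dv8, Trav15d-1-dv6d-1 or Trav15d-2-dv6d-2 alone: they were named there only beside other genes, in values with 33757, 557 and 178 UMIs.

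Copies of the Trav15-dv6 pairs were counted in both chains, with no test made. In TRDC, Trav15d-2-dv6d-2 had 2966 UMIs and Trav15-2-dv6-2 667, while Trav15d-1-dv6d-1 had 2325 and Trav15-1-dv6-1 1913. The value that names both of the latter pair had 564 UMIs, more than the gap between them, so their order in TRDC is not settled. In TRAC, Trav15-2-dv6-2 and Trav15-1-dv6-1 had 968 and 2164 UMIs alone, while all values that named either d copy had 178 and 557 UMIs.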
